A study of Homo sapiens with 8 samples.

Results

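The genes that encode the constant regions of the antibody chains, together with the J chain gene, were examined in RNA-seq libraries of the multiple myeloma (MM) cell lines JJN3 and H929. The 9 genes were the heavy chain constant genes IGHM, IGHG1, IGHE, IGHA1 and IGHA2, the light chain constant genes IGKC, IGLC2 and IGLC3, and IGJ (now named JCHAIN), of 63677 genes counted. They were chosen by symbol. Each heavy chain symbol had a second gene identifier in the tables, and all of those were at 0 counts.

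Both are established human lines, each a single line grown in culture with serum. One group of each line received THZ1, a covalent inhibitor of the transcription kinase CDK7, at 50 nM, and the other received the vehicle DMSO, with RNA taken at 24 h. There were 2 libraries per group and 8 in all, with total counts between 17476443 and 19194371. Nothing in the labels says that the 2 libraries of a group came from separate cultures, so the p-values below may measure technical spread alone.

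An antibody is built from heavy chains and light chains, each with a variable region joined to a constant region. The heavy chain constant genes lie in a row on chromosome 14, and class switch recombination in the B cell moves the variable region next to one of them, which fixes the class as IgM, IgG, IgE or IgA. A light chain uses either the kappa constant gene on chromosome 2 or 1 of several lambda constant genes on chromosome 22, and a plasma cell clone normally makes a single light chain type. The J chain, encoded on chromosome 4, joins IgA into dimers and IgM into pentamers, and plasma cells of other classes also transcribe it.

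Several of these genes are near copies of each other, and the authors kept only reads that map to a single place. IGLC2 (chr22:23243156-23243617, plus strand, GRCh37) and IGLC3 (chr22:23248512-23248973, plus strand) each have a single exon of 462 bases, and over its length they differed at 1 base, T212C, with positions counted from 1 at the 5′ end of the exon and the IGLC2 base first. The stretch around that base is shown because a read that lay within the exon could be told apart between these genes only where it crossed it. Reads that run in from another exon were not examined. Capitals mark the base that differs, in chr22:23243318-23243416 for IGLC2 and chr22:23248674-23248772 for IGLC3.

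IGLC2: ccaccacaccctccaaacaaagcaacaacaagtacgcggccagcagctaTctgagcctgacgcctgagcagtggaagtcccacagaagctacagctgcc
IGLC3: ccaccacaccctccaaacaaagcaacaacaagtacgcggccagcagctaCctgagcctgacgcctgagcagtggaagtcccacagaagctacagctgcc

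Of the 413 start positions of a 50-base read within the exon, 50 in IGLC2 and 49 in IGLC3 matched a single place in the genome. The IgA genes differ most in the hinge, the flexible link between the antigen-binding arm and the stem of the antibody. The start of the exon that holds the hinge is shown for both, read on the minus strand, with capitals for the bases before the first run of 20 bases that the genes share. The pieces are chr14:106174388-106174481 for IGHA1 and chr14:106054157-106054211 for IGHA2.

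IGHA1: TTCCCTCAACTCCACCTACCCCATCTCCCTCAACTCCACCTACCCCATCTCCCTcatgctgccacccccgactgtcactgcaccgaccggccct
IGHA2: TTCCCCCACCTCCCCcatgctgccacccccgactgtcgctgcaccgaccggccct

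The IGHA1 piece held 54 such bases and the IGHA2 piece 15. Over their first exons these genes were 95.4% identical. On the minus strand of chromosome 14, IGHM lies at 106318037 to 106322323, IGHG1 at 106202680 to 106209408, IGHA1 at 106170332 to 106175002, IGHE at 106064028 to 106068065 and IGHA2 at 106053226 to 106054732. The share of read positions within exons that matched a single place in the genome and the exons of a single annotated gene was 100% for IGHM, 40.9% for IGHG1, 60.4% for IGHA1, 36.3% for IGHE and 72.7% for IGHA2. Of the exonic bases of IGHE, 43.1% also lay in exons of AL928742.12 and RP11-731F5.1. IGKC, a single exon of 523 bases at chr2:89156674-89157196 on the minus strand, had 100%, and IGJ, at chr4:71521258-71547534 on the minus strand, had 93.7%.

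H929 is known as an IgA kappa myeloma. The light chain counts went against this in the libraries labelled H929 DMSO, and not in those labelled H929 THZ1. In the libraries labelled H929 DMSO, IGKC had 0 and 0 counts, IGLC3 had 24879 and 22803, and the lambda variable (V) genes had 31162 and 28736 in sum. In the libraries labelled H929 THZ1, IGLC3 had 3 and 2 counts, and the kappa V genes had 31511 and 29325. The heavy chain counts also split along the labels, with IGHG2 at 201 and 206 counts in the libraries labelled DMSO and 0 and 0 in those labelled THZ1, and IGHA1 at 0 and 3 against 174 and 199. Lists of markers of other cells differed too, and the T and NK cell list in both directions. Of its 7 genes 3 were tested, with 2 lower and 1 higher under the THZ1 label. CD3E went from 15 and 26 counts (DMSO) to 640 and 650 (THZ1), whereas CD8A went from 121 and 108 to 0 and 0 and CD3G from 24 and 12 to 1 and 0. The myeloid gene ITGAM went from 607 and 463 to 0 and 0. Summed over each list in CPM (counts scaled by the total of the library), the 7 T and NK cell markers were at 8.74 and 8.54 for DMSO against 35.6 and 36.2 for THZ1, a sum in which CD3E held most of the THZ1 counts, with KLRD1 at 0 in all 4. The 8 myeloid and erythroid markers were at 33.5 and 26.2 against 0.760 and 0.547, with MPO at 0 in all 4, and the 10 plasma cell markers at 1763 and 1921 against 7161 and 7073. Of these 10 markers, 8 were tested, with 6 higher and 2 lower, beside 33.1% and 32.6% of all genes tested. Against the direction of the sum, MZB1 went from 6566 and 6892 counts to 3422 and 3216, and CD38 from 1811 and 1654 to 1214 and 1171. The part of these marker lists in the results was not tested. Under the H929 labels, the effect of THZ1 and the origin of the libraries cannot be told apart, and every value below is between libraries as labelled.

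Within that group of libraries, H929 DMSO replicate 2 also held counts of genes that were high in the libraries labelled H929 THZ1. The kappa V genes had 597 counts there and 3 in replicate 1. IGLL5, a lambda-like gene whose last exon covers IGLC1, had 27 and 0, and the plasma cell receptor SLAMF7 had 174 and 2. The part of this in the results was not tested, and results that rest on this library are given without it as well.

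The 4 JJN3 libraries all held counts of IGHG1, kappa V genes and IGJ, and plasma cell markers were present in each of them. SDC1, the plasma cell surface proteoglycan CD138, stood at 1395 and 1366 counts under DMSO and at 812 and 927 under THZ1. The B cell gene CD22 was at 0 in all 8 libraries. The summed level of the 10 plasma cell markers was 2094 and 2130 CPM with DMSO and 1389 and 1413 CPM with THZ1, and that of the 7 T and NK cell markers was 2.57 to 4.75 CPM. In such bulk RNA, fewer cells of a type and less RNA per cell cannot be told apart.

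**Figure D1:**
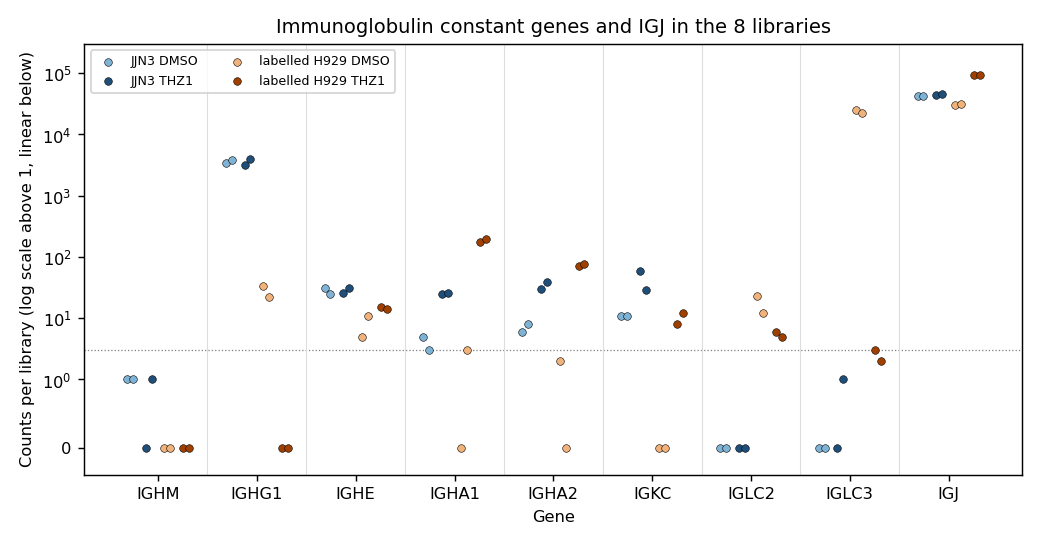
Counts of the 9 genes in each of the 8 libraries, on an axis that is logarithmic above 1 and linear below, with 1 point per library, colour for the group and a dotted line at the floor of 3 counts. IGJ lies between 30066 and 94256 in all libraries, IGHG1 is high in the 4 JJN3 libraries, and IGLC3 is high in the 2 libraries labelled H929 DMSO.

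IGJ was detected at a high level in all 8 libraries. With DMSO, JJN3 had 41908 and 42509 counts, and with THZ1 43948 and 45116. The libraries labelled H929 DMSO had 30066 and 30856, and those labelled H929 THZ1 had 92911 and 94256. The groups did not overlap, and the order from low to high was H929 DMSO, JJN3 DMSO, JJN3 THZ1 and H929 THZ1.

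As a level, IGJ was at 2206 ± 31.4 CPM with DMSO and 2478 ± 52.2 CPM with THZ1 in JJN3 (SD, n = 2). The labelled H929 groups were at 1657 ± 76.3 CPM with DMSO and 5098 ± 81.0 CPM with THZ1 (SD, n = 2). In JJN3, the log2 fold change with THZ1 was 0.27 (SE 0.11) and was not called (quasi-likelihood test of edgeR, Benjamini-Hochberg adjusted over all genes tested, adjusted p = 0.0537). A call needed an adjusted p under 0.05 and a log2 fold change past 0.5 in either direction. The adjusted p for IGJ moved between 0.00363 and 0.326 when single libraries were left out, and its log2 fold change stayed between 0.22 and 0.32, so that it was called in none of these. Between the libraries labelled H929, IGJ was higher with THZ1 by 1.57 (SE 0.07, edgeR, adjusted p = 2.78e-12).

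Per kilobase of exon, IGJ stood far above the other members in JJN3, where IGHG1 came next. The level was 1427 ± 20.3 CPM per kilobase for IGJ and 69.5 ± 6.38 for IGHG1 with DMSO, and 1603 ± 33.8 and 72.5 ± 8.05 with THZ1 (SD, n = 2). The group means of all other members were below 5 CPM per kilobase in JJN3, with IGKC in THZ1 replicate 1 the highest single value at 6.35. In the libraries labelled H929 DMSO the order began with IGLC3, at 2803 ± 94.9 CPM per kilobase, and IGJ came next at 1072 ± 49.4 (SD, n = 2). Those labelled H929 THZ1 began with IGJ, at 3297 ± 52.4, followed by IGHA1 at 7.15 ± 0.718 (SD, n = 2). These orders are among the members alone and leave out the V genes. The kappa V genes had 31511 and 29325 counts in sum in the libraries labelled H929 THZ1. In JJN3 they had 5093 and 5175 with DMSO and 7364 and 9176 with THZ1.

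The order of genes depended in part on the measure of length. Counted per kilobase of read positions that match a single place and gene, IGLC3 in the libraries labelled H929 DMSO was at 26433 ± 895 CPM, since so few of its positions could be counted, while IGJ was at 1491 ± 68.7 (SD, n = 2). IGHG1 in JJN3 was at 190 ± 17.4 with DMSO and 198 ± 22.0 with THZ1 on this scale, still below IGJ at 1985 ± 28.3 and 2230 ± 47.0 (SD, n = 2). In JJN3 with DMSO, IGKC was above IGHE per kilobase, at 1.10 ± 0.00459 and 0.904 ± 0.133, and below it per kilobase of such positions, at 1.21 ± 0.00506 and 3.05 ± 0.449 (SD, n = 2).

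**Figure D2:**
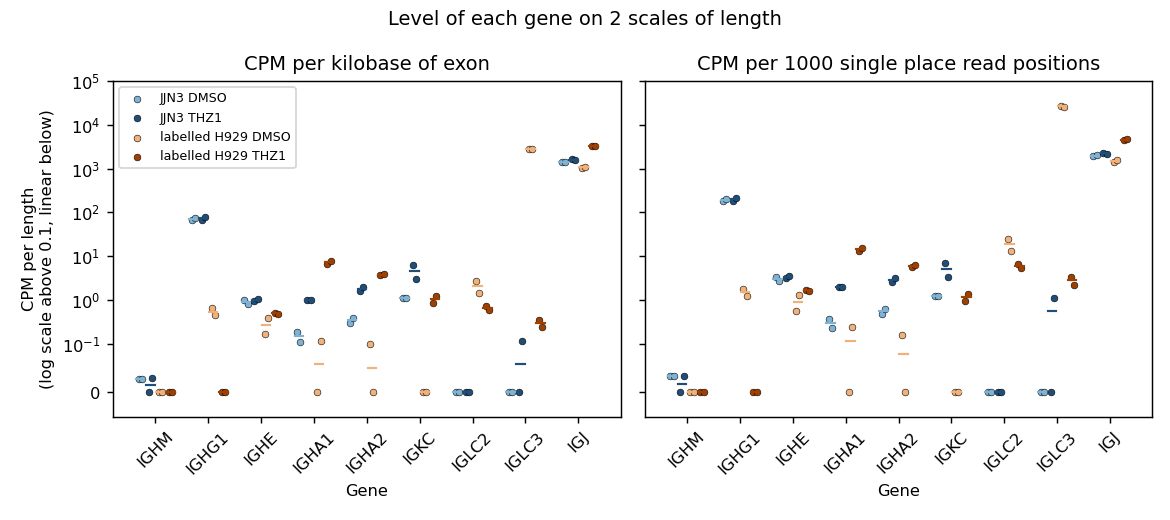
Level of each of the 9 genes as CPM per kilobase of exon (left) and per kilobase of read positions that match a single place and gene (right), with 1 point per library, a bar at the group mean (n = 2) and an axis that is logarithmic above 0.1. IGLC3 in the libraries labelled H929 DMSO moves from 2803 to 26433, and IGJ stays the highest gene in the other groups on both scales.

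IGHG1, the constant gene of the IgG1 class, took most heavy chain constant counts of JJN3. Under DMSO it had 3446 and 3901 counts, and under THZ1 3225 and 3992, so that the groups overlapped. The log2 fold change was 0.16 (SE 0.09) and was not called (edgeR, adjusted p = 0.152). The libraries labelled H929 DMSO had 33 and 22 counts and those labelled H929 THZ1 had 0 and 0, which put THZ1 at least 9.11-fold lower against a floor of 3 counts per library (edgeR, adjusted p = 2.24e-06). In JJN3, the heavy chain V genes had only 2 and 3 counts in sum with DMSO and 3 and 0 with THZ1. The heavy chain joining genes had 0 in each JJN3 library. Whether the IGHG1 RNA of JJN3 carried a variable region was not tested.

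Of all heavy chain constant counts, the 4 other heavy chain members and IGHD, IGHG2, IGHG3 and IGHG4 included, IGHG1 took 93.5% (Wilson 95% interval 92.7 to 94.3) and 92.9% (92.1 to 93.7) in the JJN3 libraries with DMSO. With THZ1 it took 94.4% (93.6 to 95.1) and 95.2% (94.5 to 95.8). These intervals, and the floor, cover counting error only. The libraries labelled H929 DMSO gave IGHG1 10.9% (7.83 to 14.9) and 7.41% (4.94 to 11.0), where IGHG2 took 66.1% and 69.4%.

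The genes of the IgA class rose with THZ1 in JJN3, from a low level. Under DMSO, IGHA1 had 5 and 3 counts, and under THZ1 25 and 26, and the groups did not overlap. Its log2 fold change was 2.83 (SE 0.46, edgeR, adjusted p = 0.00033), and the ratio of the summed counts was 6.79, with an exact counting interval of 3.20 to 16.6. Counts of IGHA2 were 6 and 8 under DMSO and 30 and 39 under THZ1, also without overlap, and its log2 fold change was 2.47 (SE 0.39, edgeR, adjusted p = 0.000283). The ratio for IGHA2 was 5.25, with an interval of 2.93 to 10.1. Even with THZ1, IGHA1 reached 0.998 ± 0.0119 CPM per kilobase and IGHA2 1.79 ± 0.260, against 72.5 ± 8.05 for IGHG1 (SD, n = 2).

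Of the IgA counts in JJN3, IGHA1 held 5 of 11 and 3 of 11 with DMSO and 25 of 55 and 26 of 65 with THZ1. In the libraries labelled H929 THZ1 it held 174 of 245 counts, 71.0% (Wilson interval 65.0 to 76.3), and 199 of 276, 72.1% (66.5 to 77.1). In JJN3 with THZ1 the share was 45.5% (33.0 to 58.5) for the first library, and the interval for the second was 29.0 to 52.1. These are shares of counts, not of levels per length, and the difference in share between the lines was not tested.

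Among the libraries labelled H929, both IgA genes were higher with THZ1. IGHA1 counts of 0 and 3 labelled DMSO stood against 174 and 199 labelled THZ1, and its log2 fold change was 6.80 (SE 0.40, edgeR, adjusted p = 1.95e-10). It was 10.54 without DMSO replicate 2, the library that held the 3 counts, and 5.83 without replicate 1. Those of IGHA2 were 2 and 0 against 71 and 77, and it was called higher (edgeR, adjusted p = 2.09e-08). The log2 fold change of IGHA2 was 5.12 to 9.19 with single libraries left out, the upper value without DMSO replicate 1, which held its 2 counts. Because the DMSO counts were so few, the ratios of summed counts are also given, 125 for IGHA1 with a counting interval of 42.3 to 607, and 74.2 for IGHA2 with 20.2 to 618.

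The remaining heavy chain members had few counts. IGHE, the constant gene of the IgE class, had 31 and 25 counts in JJN3 with DMSO and 26 and 31 with THZ1. Its groups overlapped and it was not called, with a log2 fold change of 0.22 (SE 0.31, edgeR, adjusted p = 0.574). The libraries labelled H929 DMSO had 5 and 11 counts and those labelled THZ1 had 15 and 14. They did not overlap, and the log2 fold change of 0.80 (SE 0.46, edgeR, adjusted p = 0.121) was not called, but without DMSO replicate 2 it was called higher (edgeR, adjusted p = 0.0495).

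IGHM, the constant gene of the IgM class that a B cell uses before switching, was not detectable at this depth. It had 1 and 1 counts in JJN3 with DMSO, 0 and 1 with THZ1, and 0 in the other 4 libraries, so it did not pass the filter on low counts in any comparison. The floor of 3 counts corresponds to 0.156 to 0.172 CPM across the libraries.

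**Figure D3:**
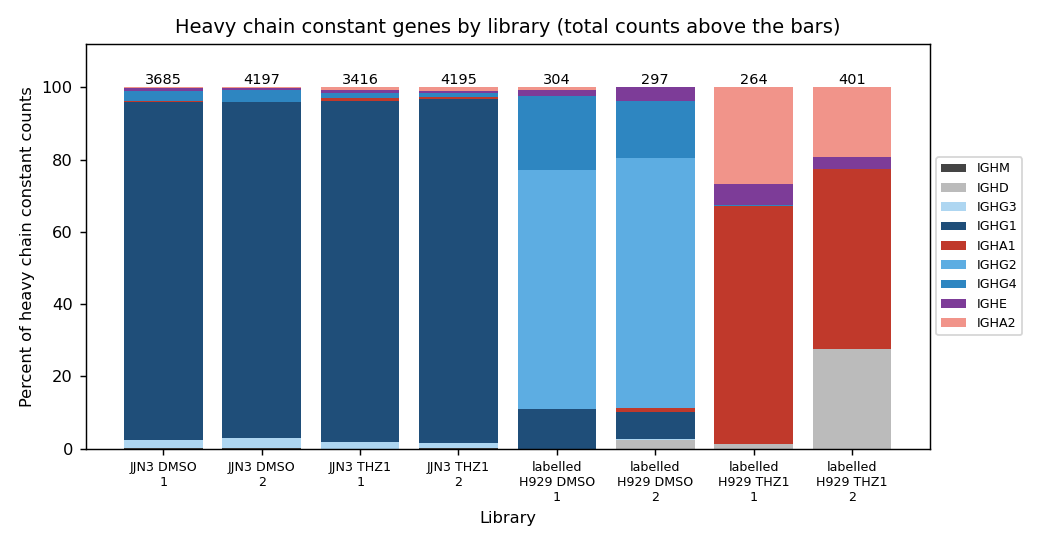
Share of each heavy chain constant gene in the heavy chain constant counts of each library, in percent, with the total above each bar and the genes stacked in their order along chromosome 14. IGHG1 fills 92.9% to 95.2% in JJN3, IGHG2 is the largest part in the libraries labelled H929 DMSO, and IGHA1 in those labelled H929 THZ1.

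IGKC, the kappa light chain constant gene, had more counts with THZ1 in JJN3, from a number so low that it may not measure the whole of the kappa constant RNA. Counts were 11 and 11 under DMSO and 58 and 29 under THZ1, and the groups did not overlap although the THZ1 libraries were far apart. The log2 fold change was 2.18 (SE 0.44, edgeR, adjusted p = 0.0015) and the ratio of summed counts 4.21, with a counting interval of 2.61 to 7.06. It was called in every fit with a library left out, with a log2 fold change of 1.51 without THZ1 replicate 1.

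The level of IGKC was low beside the other parts of the kappa chain in the same libraries. In JJN3, the kappa V genes had 5093 and 5175 counts in sum with DMSO and 7364 and 9176 with THZ1. The joining (J) genes, which link the V and constant regions, had 1241 and 1440 with DMSO and 1714 and 1659 with THZ1. So IGKC, whose whole exon is unique in the genome, had between 11 and 58 counts in libraries with at least 5093 on the V genes. The libraries labelled H929 THZ1 showed the same, with 8 and 12 counts of IGKC. In the annotation used here no exon of another gene overlapped IGKC, and the release that the authors counted on is not given in the sources used here.

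IGKC had 0 counts in both libraries labelled H929 DMSO, which made those labelled THZ1 at least 3.34-fold higher against the floor of 3 counts per library. It did not pass edgeR's filter there. With no filter it was called higher, with a fitted log2 fold change of 6.32 (edgeR, adjusted p = 0.0219), a value that depends on the prior count.

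IGLC3, a lambda light chain constant gene, was abundant under the H929 DMSO label and at or near 0 elsewhere. It had 24879 and 22803 counts there and 3 and 2 in those labelled H929 THZ1. In JJN3 the counts were 0 and 0 under DMSO and 0 and 1 under THZ1. Between the libraries labelled H929, the log2 fold change was -13.19 (SE 0.13, edgeR, adjusted p = 1.22e-18), and the summed level was 9516 times higher with DMSO than with THZ1, with a counting interval of 4077 to 29309.

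IGLC2, whose sequence above differs by the single base, had far fewer counts. Under the H929 DMSO label it had 23 and 12 counts, under the H929 THZ1 label 6 and 5, and 0 in the 4 JJN3 libraries. IGLC3 thus held 99.9% of the counts of this pair in both libraries labelled H929 DMSO. Whether those reads crossed the base at which the genes differ or ran in from another exon was not tested. The log2 fold change of IGLC2 was -1.69 (SE 0.49, edgeR, adjusted p = 0.00498), but the call was lost without DMSO replicate 1 (log2 fold change -1.18, adjusted p = 0.0847), without THZ1 replicate 2 (adjusted p = 0.0527), with no filter (adjusted p = 0.0555) and with DESeq2 (adjusted p = 0.107).

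**Figure D4:**
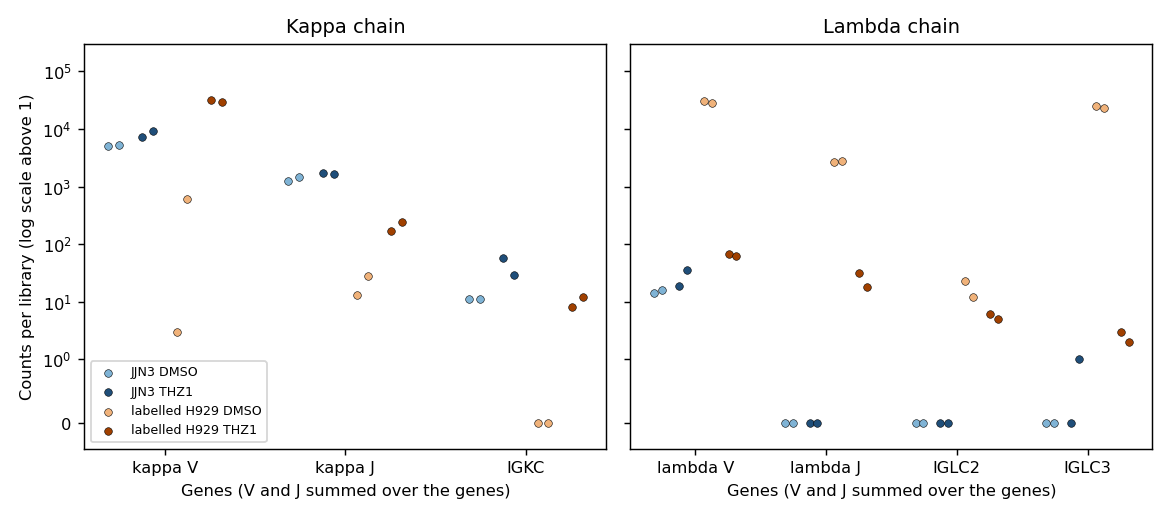
Counts of kappa (left) and lambda (right) variable, joining and constant genes in each library, on an axis that is logarithmic above 1, with V and J summed over their genes and 1 point per library. The libraries labelled H929 DMSO carry lambda V, lambda J and IGLC3 counts, those labelled H929 THZ1 and the JJN3 libraries carry kappa V and J counts, and IGKC does not pass 58 in any library.

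Of the 9 genes, 6 could be tested in JJN3, of which 3 were higher with THZ1 (IGHA1, IGHA2 and IGKC) and 0 lower. Of all 13984 genes tested, 20.6% were called higher and 21.3% lower, 41.8% in either direction. IGHA1 and IGHA2 entered the test through the THZ1 libraries, where they were high, so the count of 3 is a description. No member was lower at an unadjusted p under 0.05 either, and DESeq2 also called 0 lower. IGHM, IGLC2 and IGLC3 did not pass the filter. In sum the 9 genes took 0.237% and 0.243% of the library with DMSO and 0.271% and 0.266% with THZ1, of which IGJ made up 91.5% to 92.9%.

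Between the libraries labelled H929, 7 of the 9 genes were tested, of which IGHA1, IGHA2 and IGJ were higher and IGHG1, IGLC2 and IGLC3 lower with THZ1. There, 33.1% of the 14863 genes tested were called higher and 32.6% lower, 65.7% in either direction. IGHA1, IGHA2, IGHG1, IGLC2 and IGLC3 entered the test through the group where they were high, so these counts too are a description. Without DMSO replicate 2, IGHE and IGKC were also called higher. IGKC, at 0 counts in both libraries labelled DMSO, passed the filter and was called without DMSO replicate 1 too. Its log2 fold change was 6.34 without replicate 2 and 6.32 without replicate 1, values that depend on the prior count. In an interaction fitted over all 8 libraries, which asked whether the response differed between the lines as labelled, 8 members were tested, 3 were called higher and 2 lower in H929 relative to JJN3. The shares of all 16122 genes tested were 28.1% and 25.5%, 53.7% in either direction. IGHA1, IGHA2, IGLC2 and IGLC3 entered the interaction through the groups where they were high, so its counts are a description as well.

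**Figure D5:**
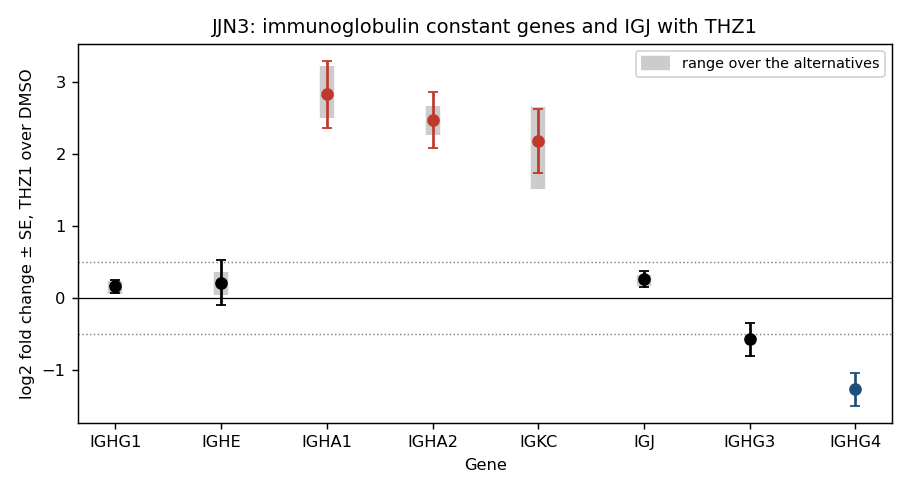
log2 fold change with THZ1 in JJN3 for the 6 members tested and for IGHG3 and IGHG4, with bars for the SE, grey bands for the range of the members over the alternative settings, dotted lines at 0.5 and -0.5, red for genes called higher and blue for genes called lower. IGHA1, IGHA2 and IGKC lie above 2 and IGHG1, IGHE and IGJ within 0.5 of 0.

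The other constant genes of the antibody loci were read in the same way. IGHG3, of the IgG3 class, had 90 and 126 counts in JJN3 with DMSO and 66 and 61 with THZ1, without overlap, and its log2 fold change of -0.57 (SE 0.23, edgeR, adjusted p = 0.0541) was not called. IGHG4, of the IgG4 class, fell from 106 and 133 counts to 43 and 44, with a log2 fold change of -1.26 (SE 0.22, edgeR, adjusted p = 0.000612). Of the 8 other constant genes, these were the 2 tested in JJN3, and 1 was called lower and 0 higher. Reads shared within the IgG genes were left out, and 50.7% of the read positions of IGHG4 and 49.8% of those of IGHG3 matched a single place.

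IGHG2, of the IgG2 class, had 0 and 0 counts in JJN3 with DMSO and 1 and 1 with THZ1. In the libraries labelled H929 DMSO it was the main heavy chain constant gene, and those labelled THZ1 were at least 67.7-fold lower. IGHG4 counts of 63 and 47 labelled H929 DMSO stood against 1 and 0 labelled H929 THZ1. IGHD, of the IgD class, stood out by its replicates, with 3 and 111 counts in the libraries labelled H929 THZ1, 0 and 7 in those labelled DMSO and 0 in JJN3.

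Of the lambda genes, IGLC7 followed IGLC3, with 1379 and 1147 counts under the H929 DMSO label, 4 and 4 under the THZ1 label and 0 in JJN3. IGLC6, annotated as a pseudogene, had 26 and 21, then 0 and 1, and 0 to 1 in JJN3. IGLC1 was at 0 in all libraries. In the annotation used here its exon lies wholly within an exon of IGLL5, which leaves no read position of its own, and whether it was transcribed was not tested. IGLL5 itself had 0 and 27 counts under the H929 DMSO label, 1523 and 1382 under the THZ1 label, and at most 1 in JJN3.

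Genes that act on the immunoglobulin loci are given by list, to be read against the 21.3% of all genes called lower and 20.6% called higher in JJN3. Of 17 transcription factors of these genes, 13 were tested, 4 were lower and 4 higher, with a median log2 fold change of 0.18 beside -0.000361 over all genes tested. SPIB, an ETS family factor of B cells, fell by 1.02 on the log2 scale (edgeR, adjusted p = 0.000304). XBP1, which drives the secretory programme, fell by 0.61 (edgeR, adjusted p = 0.00012), and IRF4, a factor on which plasma cells depend, fell by 0.55 (edgeR, adjusted p = 0.00041). BACH2, a repressor of plasma cell differentiation, rose by 1.42 (edgeR, adjusted p = 1.33e-06), IKZF3, which encodes Aiolos, by 1.33 (edgeR, adjusted p = 8.88e-05), and POU2F1, which encodes the octamer-binding factor OCT1, by 0.97 (edgeR, adjusted p = 3.85e-05).

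In the list of 7 genes that process the heavy chain RNA, where the choice of poly(A) site sets the secreted or the membrane form, 2 were lower and 1 higher, with a median of -0.21. CSTF3 and CSTF1, subunits of the cleavage stimulation factor, fell by 0.93 (edgeR, adjusted p = 9.23e-05) and 0.70 (edgeR, adjusted p = 3.03e-05) on the log2 scale. ELL2, the elongation factor that favours the secreted form, rose by 0.51 (edgeR, adjusted p = 0.00118).

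The 28 genes of antibody folding and assembly were all tested, with 4 lower, 6 higher and a median of 0.16, so the share called did not exceed the 41.8% of all genes. MZB1, a cofactor of antibody assembly in B cells and plasma cells, fell by 1.05 (edgeR, adjusted p = 5.44e-06), SDF2L1, of the chaperone complex in the endoplasmic reticulum, by 0.94 (edgeR, adjusted p = 0.000358) and MANF by 0.74 (edgeR, adjusted p = 1.5e-05) on the log2 scale. The co-chaperone DNAJC3 rose by 1.19 (edgeR, adjusted p = 1.31e-06), the disulfide isomerase PDIA6 by 0.89 (edgeR, adjusted p = 3.8e-05) and the chaperone HYOU1 by 0.66 (edgeR, adjusted p = 0.00124). HSPA5, which encodes BiP, the chaperone that holds unpaired heavy chains, had a log2 fold change of -0.34 and was not called.

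Of 11 genes of class switch recombination, 10 were tested, 3 were lower, beside 21.3% of all genes, and 0 higher, with a median of -0.43. The repair genes XRCC4 and EXO1 fell by 1.35 (edgeR, adjusted p = 2.55e-06) and 1.00 (edgeR, adjusted p = 4.92e-06) on the log2 scale, and UNG, which removes uracil from DNA, by 0.98 (edgeR, adjusted p = 1.17e-05).

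Partners of the antibody at the cell surface were mostly low. Of 10 genes of the B cell receptor, 5 were tested in JJN3, 3 were lower and 0 higher, with a median of -1.10, and CD79B, a signalling chain of the receptor, fell by 1.24 (edgeR, adjusted p = 4.61e-05). Of the 10 plasma cell markers, 9 were tested, 6 were lower and 0 higher, with a median of -0.61. SLAMF7 fell by 1.65 (edgeR, adjusted p = 3.34e-06) and TNFRSF17, which encodes BCMA, by 0.64 (edgeR, adjusted p = 9.64e-05), beside MZB1 as above. Of the 7 T and NK cell markers 2 were tested and CD3E was higher, from 36 and 32 counts to 75 and 50, a gene named here because it was the only one. Of the 8 myeloid and erythroid markers 1 was tested, HBB, and it was not called.

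The genes whose pattern over the 8 libraries lay nearest to IGJ were MTDH, HSPA13 and TXNDC15, among 8956 candidates. Nearness was the root mean square difference of log2 CPM after each gene was centred on its mean, 0.053, 0.074 and 0.076 for these, where IGJ itself had an SD of 0.62. For IGHG1, with an SD of 4.98, the nearest were SDC2, at 0.58, HGF, at 1.32, and NRCAM, at 1.87. SDC2 had 9694 and 10207 counts in JJN3 with DMSO, 9121 and 8295 with THZ1, 56 and 52 in the libraries labelled H929 DMSO and 0 and 0 in those labelled H929 THZ1. These differences are descriptions over 8 libraries that fall into 4 groups.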

How the data were processed

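RNA-seq of JJN3 and H929 cells with DMSO or THZ1 (50 nM, 24 h) was analysed from the deposited tables, with 2 libraries per group. The authors aligned single-end reads of 50 bases to hg19 using STAR 2.5.2a, kept only reads with a single place in the genome and counted them with featureCounts on an Ensembl annotation, and they deposited raw counts per gene. The release and the strand setting are not given in the sources used here, so genes that overlap or lie antisense are uncertain. The authors also deposited DESeq2 1.12.4 tables, which hold their mean normalized signal, fold changes and p-values. The JJN3 table was read for gene symbols alone, and the values of both tables were not used.

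Genes were tested with edgeR 4.0.16 (R 4.3.3) by the quasi-likelihood test after TMM normalization and the filterByExpr filter, with Benjamini-Hochberg adjustment over all genes tested, within each line. The difference in response was fitted as an interaction over all 8 libraries. SE is the log2 fold change divided by the square root of F. Alternatives were DESeq2 1.42.0, DESeq2 size factors, total counts, normalization without immunoglobulin genes, no filter, a minimum of 1 CPM in 2 libraries, a joint fit of the 8 libraries, a replicate block, summed gene identifiers and the omission of each library. The scripts were tested on simulated data.

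Positions come from GENCODE release 44 lifted to GRCh37, the same coordinates as hg19, and sequences from GRCh37. A read position was counted as unique when its 50 bases occur once in the genome on both strands together and lie in exons of a single gene. The 9 genes and the lists were chosen with earlier results of these data known. Named genes were every member, all other constant genes, the 3 largest changes in each direction per list among called genes of JJN3 whose average log2 CPM reached 3, and the 3 genes nearest in pattern to each member with at least 100 counts in 4 or more libraries. The exceptions CD3E, HBB, HSPA5, SDC1, CD22, ITGAM and the V and J genes were named after their values were seen. So were SLAMF7, MZB1 and CD38 under the H929 labels.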

Additional observations from a re-analysis of the deposited data

Results flagged for a closer look

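The response differed between the lines as labelled in 5 of the 8 members tested, by the interaction test of edgeR over all 8 libraries with Benjamini-Hochberg adjustment, beside 53.7% of all genes tested. IGHA1 and IGHA2 entered this test through the THZ1 libraries and IGLC3 through those labelled H929 DMSO, where they were high. The count of 5 is therefore a description. The difference is the log2 fold change in H929 minus that in JJN3, and under the H929 labels treatment and origin of the libraries cannot be told apart.

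For IGHA1 the difference was 3.98 (SE 1.01, edgeR, adjusted p = 0.00268), and 3.03 to 7.73 when single libraries were left out. IGHA2 gave 3.54 (SE 0.90, edgeR, adjusted p = 0.00289), with a range of 2.67 to 6.73. The upper ends came without the library labelled H929 DMSO that held the few counts of each gene, replicate 2 for IGHA1 and replicate 1 for IGHA2. The IGJ difference was 1.31 (SE 0.11, edgeR, adjusted p = 3.28e-08), with a range of 1.28 to 1.38.

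The IGHG1 difference was -7.95 (SE 0.91, edgeR, adjusted p = 2.06e-06), with a range of -8.18 to -7.63. Both libraries labelled H929 THZ1 were at 0 counts of IGHG1, so this fitted value depends on the prior count and is no bound. For IGLC3 it was -15.60 (SE 3.07, edgeR, adjusted p = 0.000414). The JJN3 side of the IGLC3 difference rested on 1 count in JJN3 THZ1 replicate 2, without which the difference was -13.20 and not called (edgeR, adjusted p = 1).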

How the results depend on the processing

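Of the 294 log2 fold changes recomputed for single genes under the alternatives, 287 kept their direction and their side of the threshold, 5 lost the call, 2 gained it and 0 turned. The 287 include the fits with summed gene identifiers, which could not differ because the second identifiers were at 0 counts. In JJN3 the 3 members higher and 0 lower held in every alternative. The median of all genes tested was -0.00036 in JJN3 and 0.039 in the interaction. It moved to -0.10 and 0.18 when scaled by total counts and to 0.17 and -0.15 with DESeq2, and with no filter it was 0.13 in JJN3.

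When single libraries were left out, the members higher under the H929 labels numbered 3 to 5 and those lower in the interaction 1 to 2, the value of 1 without JJN3 THZ1 replicate 2. A group left with 1 library was taken to vary like the others. IGKC, not called in the interaction (4.14, edgeR, adjusted p = 0.0689), was called without JJN3 THZ1 replicate 1 (4.85, edgeR, adjusted p = 0.0175). With all constant genes in the total, in place of the members alone, IGHG1 made up 93.2% (JJN3 DMSO), 94.8% (JJN3 THZ1) and 9.13% (labelled H929 DMSO) of the heavy chain counts and IGHA1 57.8% (labelled H929 THZ1), against 98.9%, 97.6%, 71.8% and 67.8%. These are group means. The 57.8% averages libraries at 65.9% and 49.6%, which had 3 and 111 counts of IGHD. The 71.8% averages 82.5% of 40 counts and 61.1% of 36.

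The replicate numbers did not pair the libraries. Deviations of same-numbered libraries from their group means correlated at 0.0096 in JJN3 and -0.011 under the H929 labels, each over 2 pairs. With the replicate number as a block, JJN3 had 3 members higher and 0 lower, the libraries labelled H929 had 3 and 3, and the interaction 3 and 2. Depth limits IGHM, IGHE, IGKC and IGLC2, which had at most 58 counts in any library.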
